A study of Ictalurus punctatus with 14 samples.

Results

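The 2 libraries of channel catfish (Ictalurus punctatus) larvae at 6 days post fertilization (dpf) were compared with the 2 libraries at 5 dpf. These are 4 of the 14 libraries of a series that covers 7 stages from 2 to 10 dpf with 2 replicate pools of 4 fish each. The fish of all stages were offspring of the artificially spawned Kansas random strain, of unknown sex. At 5 dpf the eyes were visible and the tail was free of the yolk, at 6 dpf part of the yolk had been absorbed, and feeding began only at 7 dpf. Whole animals were homogenized, so every value averages over all tissues and over the fish of a pool. Ribosomal RNA was depleted before sequencing, and the measurement is the number of reads counted per gene. The members of the comparison were the genes counted in these libraries: 23231 genes were listed, and 20329 passed the filter on low counts and were tested. A tissue present in fewer cells and a tissue with less of an RNA per cell cannot be told apart in whole animals.

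Between 5 and 6 dpf the yolk-sac larva of this species draws on its yolk. In teleost larvae of this age the retina adds outer segments to its photoreceptors, skeletal muscle grows, myelin starts to wrap axons, bone begins to form beside and in place of cartilage, and red cells made early in the embryo are followed by later generations of red cells. The comparison asked which genes of these tissues had changed across this 1 day.

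Total counts were 4349807 and 5885954 at 5 dpf and 9677682 and 9899297 at 6 dpf, so the 5 dpf levels rest on fewer reads. Across genes, Pearson's r of the log2 levels of the 2 replicates was 0.983 at 5 dpf and 0.989 at 6 dpf. The study also reported mapping rates that separate odd from even days after the embryo stage. For the libraries of 5, 7 and 9 dpf on one side and 6, 8 and 10 dpf on the other, the reported mapping rate and the age of the fish cannot be told apart in a 5 to 6 dpf difference. Genes were therefore marked as alternating when the mean levels at 6, 8 and 10 dpf all lay on one side of those at 5, 7 and 9 dpf, in the sense of their change from 5 to 6 dpf. This mark uses 5 and 6 dpf themselves and is a description, and it was applied to separate the genes that swing with the day from the rest. The 2 replicates were at least 2-fold apart in 1020, 451, 598 and 405 tested genes at 5, 6, 7 and 8 dpf. At 9 and 10 dpf it was 1415 and 3007 genes, so the means behind the mark are less certain there.

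A gene was called a differentially expressed gene (DEG) when its adjusted p in edgeR's quasi-likelihood test was under 0.05 and its log2 fold change was at least 1 in size. Of the 20329 genes, 2012 (9.9%) were DEGs, 1492 upregulated (7.34%) and 520 downregulated (2.56%). The upregulated DEGs were 74.2% of the total. The median log2 fold change was 1.46 over the upregulated DEGs, -1.26 over the downregulated DEGs and 0.00 over all genes tested. Of the upregulated DEGs, 657 alternated with the day and 835 did not, and of the downregulated DEGs, 257 alternated and 263 did not. The stage means alternated in the higher-on-even-days sense in 9.19% of all genes tested and in the lower-on-even-days sense in 8.05%. Without 5 dpf replicate 1, 5 dpf replicate 2, 6 dpf replicate 1 and 6 dpf replicate 2 in turn, 989, 859, 1196 and 1239 genes were DEGs, and 1826 to 1866 of the 2012 DEGs still had a fold change past the threshold in the same direction.

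A contrast of 7, 8, 9 and 10 dpf with the linear trend over days removed measures the same alternation with no library of 5 or 6 dpf. By this contrast, 57 of the 1492 upregulated DEGs (3.82%) were higher on even days at an edgeR adjusted p under 0.05, beside 143 of all genes tested (0.703%), and 0 were higher on odd days. Of the 520 downregulated DEGs, 104 (20%) were lower on even days, beside 392 of all genes (1.93%), and 0 were higher on even days. The median of this contrast on the log2 scale was 0.23 over the upregulated DEGs, -0.38 over the downregulated DEGs and 0.00 over all genes. For the DEGs that did not alternate by the stage means it was 0.08 (upregulated) and -0.15 (downregulated). The stage-mean rule itself uses the libraries of 7 to 10 dpf, so smaller values for these genes were built in and are no separate result. Counted by a log2 value of at least 0.5 in place of the test, 262 upregulated DEGs (17.6%) were higher on even days beside 5.6% of all genes, and 211 downregulated DEGs (40.6%) were lower beside 7.66%. The accounts that follow describe the DEGs that do not alternate first and give the others where they are named.

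**Figure D1:**
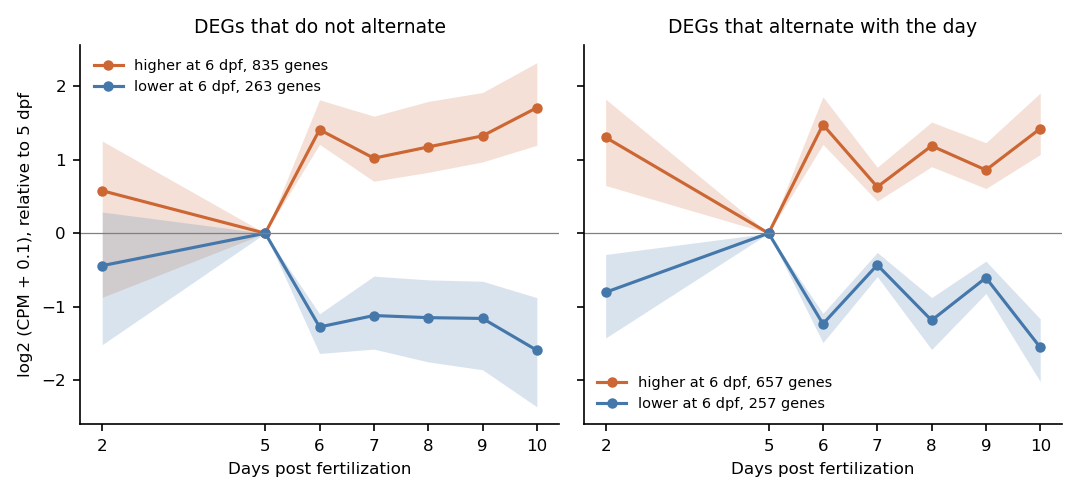
Median (points and lines) and interquartile range (bands) of the level relative to 5 dpf, as log2 of CPM plus 0.1, against age in dpf, for DEGs of 6 versus 5 dpf. The upregulated DEGs that do not alternate (left panel) stay at medians of 1.02 to 1.71 from 7 to 10 dpf, and those that alternate (right panel) drop to 0.63 at 7 dpf and 0.86 at 9 dpf. The rule that chose the genes of each panel requires the swing in the right panel.

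The DEGs that do not alternate moved back in part at 7 dpf and stayed, in the median, on the same side of their 5 dpf level to 10 dpf. On the log2 scale relative to 5 dpf, the 835 upregulated DEGs started from a median of 1.41 on the sixth day and then had medians of 1.02, 1.18, 1.33 and 1.71 up to 10 dpf. The 263 downregulated DEGs had medians of -1.28, -1.12, -1.15, -1.16 and -1.59 over the same ages. At 7 dpf, 633 of the upregulated DEGs lay between their 5 and 6 dpf levels, 193 lay beyond the 6 dpf level and 9 were back past the 5 dpf level. For the downregulated DEGs these numbers were 167, 87 and 9. These later stages share the 5 dpf libraries as their reference, so the plot describes levels and is no second test of the change. The mark for alternation was also set from the means of 5 to 10 dpf. A difference in course between marked and unmarked DEGs is thus built in.

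The 10 upregulated DEGs with the largest change, chosen among those with at least 10 CPM (counts scaled to the library total, TMM-normalized) at the higher stage, a gene symbol and no alternation, mixed plasma, nerve and nuclear proteins, and 9 of them are given here. The plasma protein gene ahsg2, which encodes fetuin of the liver, had 5.63 and 7.56 CPM at 5 dpf and 64.1 and 59.7 CPM at 6 dpf, a log2 fold change of 3.21 ± 0.38 (SE, n = 2 libraries a stage; edgeR adjusted p = 0.000345). The level of ahsg2 went on to means of 110 CPM at 7 dpf and 592 CPM at 10 dpf. The chromatin remodelling ATPase ep400 was at 15.3 and 10.9 CPM at 5 dpf and 106 and 102 CPM at 6 dpf (log2 3.01 ± 0.50, adjusted p = 0.00203). Thyroid hormone receptor alpha, thrab, was at 2.03 and 2.35 CPM and then at 15.5 and 14.5 CPM (log2 2.76 ± 0.46, adjusted p = 0.00203). The choice of genes also required that the libraries of the 2 stages did not overlap, so their separation is no further result.

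The nerve genes among them were bsnb, a scaffold of the presynaptic active zone, and nefla, the light neurofilament chain. The level of nefla was 4.96 and 4.87 CPM at 5 dpf and 25.1 and 26.7 CPM at 6 dpf, and that of bsnb 2.705 and 4.87 CPM and then 25.8 and 26.0 CPM. The giant apoptosis inhibitor birc6 was the most abundant at both stages, with 50.5 and 52.6 CPM at 5 dpf and 290 and 271 CPM at 6 dpf (log2 2.44 ± 0.40). Others were btbd7, the histone chaperone subunit ubn2b, and zanl, with log2 fold changes of 2.57, 2.43 and 2.42. The genes ep400, thrab, btbd7, birc6 and ubn2b missed the mark for alternation only because their mean at 9 dpf lay above that at 8 dpf. For ep400 these means were 63.1 and 62.8 CPM, with the 9 dpf libraries at 90.9 and 35.2 CPM. For btbd7 the means were 13.8 and 13.2 CPM. The calls of ahsg2, ep400, thrab and birc6 held without any 1 of the 4 libraries. Without 5 dpf replicate 2 the edgeR adjusted p was 0.053 for bsnb and nefla, 0.072 for btbd7, 0.084 for ubn2b and 0.15 for zanl. Without 5 dpf replicate 1 it was 0.074 for bsnb and ubn2b and 0.068 for zanl, and without 6 dpf replicate 1 it was 0.061 for ubn2b and 0.083 for zanl.

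The 10 downregulated DEGs with the largest change held genes of red cells and of the response to low oxygen. The beta globin gene hbb, the most counted gene of both 5 dpf libraries, had 12072 and 12599 CPM at 5 dpf and 2377 and 2313 CPM at 6 dpf, a log2 fold change of -2.40 ± 0.43 (edgeR adjusted p = 0.00273). The Kell blood group protease kel fell from 37.6 and 40.0 CPM to 6.07 and 7.59 CPM (log2 -2.50 ± 0.21, adjusted p = 0.000145). The Rh blood group gene rhd fell from 16.2 and 11.9 CPM to 2.98 and 2.72 CPM (log2 -2.29 ± 0.34, adjusted p = 0.00112). All of these had stayed low by 10 dpf, at means of 2158 CPM (hbb), 10.4 CPM (kel) and 5.95 CPM (rhd).

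Beside them were egln3, a prolyl hydroxylase that marks hypoxia-inducible factor for degradation, hif1al2, a gene of the hypoxia-inducible factor alpha family, and ddit4, an inhibitor of growth signalling that stress induces in mammals. The 5 and 6 dpf levels were 22.5 and 23.9 against 4.94 and 6.13 CPM for egln3, 36.7 and 33.6 against 9.47 and 9.05 CPM for hif1al2, and 185 and 167 against 43.7 and 55.1 CPM for ddit4. The largest log2 fold change downward was that of rfesd, a protein with a Rieske iron-sulfur domain, at -3.00 ± 0.45, from 15.1 and 14.6 CPM to 1.65 and 2.04 CPM. The apoptosis activator diabloa fell from 136 and 131 CPM to 28.4 and 31.3 CPM (log2 -2.16 ± 0.18). For the growth factor binding protein fgfbp2a the log2 fold change was -2.25 and for cunh15orf48 it was -2.15, and neither held without any 1 library: the edgeR adjusted p lay between 0.065 and 0.10 for fgfbp2a and between 0.092 and 0.21 for cunh15orf48 without each of the 4 in turn. By the contrast of 7 to 10 dpf, fgfbp2a alternated. The other 8 calls held in all 4 such fits.

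**Figure D2:**
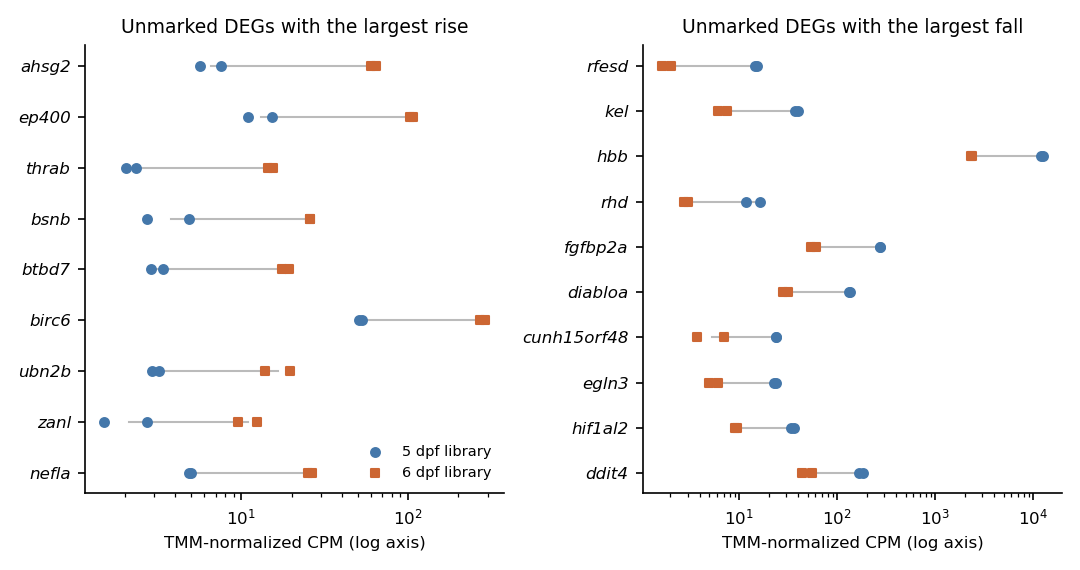
Level of each gene in the 2 libraries of 5 dpf (blue circles) and the 2 of 6 dpf (orange squares), in TMM-normalized CPM on a log axis, with a grey line between the stage means, for the DEGs that rose most (9 genes, left) and fell most (10 genes, right) among those that do not alternate. The libraries of the 2 stages do not overlap for any of them, which the choice of genes required, and hbb moves from 12072 and 12599 CPM to 2377 and 2313 CPM.

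Many genes of photoreceptors rose, and none was a downregulated DEG. Of 41 tested genes of the light response of rods and cones, 13 (31.7%) were upregulated DEGs, beside 7.34% of all genes. Over the list, 34 log2 fold changes were positive and 7 negative, down to -0.92. None of the 13 alternated under any of 4 rules for alternation. The median log2 fold change over the 41 genes was 0.98, beside 0.00 over all genes. It was 0.90 with the 2 genes that had no read at one stage set against the floor of 3 counts. All 13 were higher again at 7 dpf and at 10 dpf. The cone arrestin gene arr3a, which shuts off the activated cone pigment, had 9.69 and 6.55 CPM at 5 dpf and 39.5 and 40.3 CPM at 6 dpf (log2 2.32 ± 0.32, edgeR adjusted p = 0.000747). Cone transducin gnat2, the G protein alpha subunit that the pigment activates, rose from 2.25 and 2.52 CPM to 7.31 and 7.68 CPM (log2 1.64 ± 0.29, adjusted p = 0.00269). Rod arrestin saga rose from 5.41 and 5.04 CPM to 12.3 and 13.1 CPM, and the rod transducin gamma subunit gngt1 from 4.28 and 5.04 CPM to 12.7 and 14.4 CPM.

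Both rod and cone genes and several steps of the light response were thus among the 13. The cone transducin gamma subunit gngt2b, the pigment kinases grk7a and grk1b, the rod phosphodiesterase subunit pde6b, the guanylate cyclase gucy2d with its activator guca1c, the disc proteins prph2a and rom1a and the retinoid transporter abca4b rose, with log2 fold changes from 1.07 (rom1a) to 2.44 (abca4b), leaving grk1b aside. No read of grk1b was counted at 5 dpf and its 6 dpf levels were 0.515 and 0.778 CPM, which is near the level of 3 counts in a 5 dpf library (0.690 and 0.510 CPM), so no fold is given. Counts at 5 dpf were also low for guca1c (2 and 4), grk7a (3 and 2), prph2a (4 and 4) and abca4b (5 and 5). The size of their change is therefore uncertain. Among members that missed the threshold, rod transducin gnat1 had means of 8.90 and 11.6 CPM (log2 0.39) and the retinal transcription factor crx 3.82 and 3.60 CPM (log2 -0.07). Without 5 dpf replicate 1, 5 dpf replicate 2, 6 dpf replicate 1 and 6 dpf replicate 2 in turn, 5, 2, 7 and 6 genes of the list were upregulated DEGs and 0 were downregulated, and arr3a and gnat2 passed in all 4 fits. By DESeq2, 10 genes of the list were upregulated DEGs with all 14 libraries and 6 with only the 4 of 5 and 6 dpf, and by edgeR on those 4 it was 17. With libraries drawn down to the smallest total it was 8, and 0 were downregulated in any of these fits. The edgeR adjusted p without 5 dpf replicate 2 was 0.066 for saga and 0.057 for gngt1, and without 5 dpf replicate 1 it was 0.066 for gngt1. Of 18 tested lens genes, 0 were edgeR DEGs, with log2 fold changes from -0.96 to 0.33, and a difference from the photoreceptor list was not tested.

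In skeletal muscle, 8 of 37 tested genes (21.6%) were upregulated DEGs, beside 7.34% of all genes, and none of the 8 alternated. In the main fit 0 were downregulated, while DESeq2 on all 14 libraries gave 1. With only the 4 libraries of 5 and 6 dpf in the fit, 2 were downregulated, by edgeR or DESeq2. The fast myosin light chain mylz3 rose from 194 and 183 CPM to 644 and 521 CPM (log2 1.63 ± 0.30, edgeR adjusted p = 0.00341). The giant sarcomere protein titin has 2 genes here, and ttn.1 went from 6302 and 6563 CPM to 18637 and 17421 CPM and ttn.2 from 6383 and 6696 CPM to 18158 and 17023 CPM. As the copies can share reads, their split is uncertain. Nebulin, neb, which runs along the thin filament, had 1077 and 1092 CPM and then 3006 and 2831 CPM. The Z-disc genes actn3b and actn2b, the calcium release channel ryr1a and the myosin-binding protein mybpc2a completed the 8.

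Other abundant muscle genes did not pass the test. The creatine kinase ckmb was at means of 4062 and 3397 CPM (log2 -0.26), troponin T tnnt3a at 2066 and 1906 CPM (log2 -0.12) and the light chain myl1 at log2 0.02. The median log2 fold change of the list was 0.30. The muscle calls were sensitive to single libraries: 3, 0, 1 and 5 members were upregulated DEGs without 5 dpf replicate 1, 5 dpf replicate 2, 6 dpf replicate 1 and 6 dpf replicate 2. The edgeR adjusted p of ttn.1 lay between 0.052 and 0.091 in these fits and that of mylz3 between 0.019 and 0.057. Nebulin passed only without 6 dpf replicate 2.

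Some myelin and pigment genes rose without alternation. Of 19 tested genes of glia and myelin, 5 (26.3%) were upregulated DEGs, beside 7.34% of all genes, and 0 downregulated. Their list had a median log2 fold change of 0.19 and 6 negative values. The summed level of the list was 809 and 772 CPM at 5 dpf and 747 and 767 CPM at 6 dpf. Myelin protein zero, mpz, rose from 4.51 and 4.20 CPM to 13.8 and 15.3 CPM (log2 1.74 ± 0.25, edgeR adjusted p = 0.00101), and myelin basic protein, mbpa, from 6.99 and 6.05 CPM to 21.3 and 19.8 CPM (log2 1.66 ± 0.33, adjusted p = 0.00499). Their levels continued to 136 CPM (mpz) and 289 CPM (mbpa) at 10 dpf. The proteolipid gene plp1b, the claudin cldnk of the myelin sheath and the Schwann cell transcription factor egr2b were the other 3, all under 6 CPM at 6 dpf. Of 22 pigment cell genes, with a median log2 fold change of 0.27 and 7 negative values, 4 (18.2%) were upregulated DEGs and 0 downregulated. These 4 were pmela, the fibril protein of melanosomes (22.3 and 19.6 CPM, then 47.7 and 53.2 CPM), the melanosome transporter oca2, and the pteridine genes xdh and gch2 of yellow pigment cells. Without the 4 libraries in turn, 1, 1, 3 and 2 glia genes and 2, 1, 3 and 2 pigment genes were upregulated DEGs. The call of mpz held in all 4 fits, and the adjusted p of mbpa was 0.051 without 5 dpf replicate 1 and 0.080 without 5 dpf replicate 2.

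Several red cell genes fell. Of 18 tested genes of heme synthesis, hemoglobin and red cell function, 6 (33.3%) were downregulated DEGs, beside 2.56% of all genes. None was upregulated, and 5 of the 6 did not alternate. The globin genes hbb and hbae were not on this list and are not in its counts. The first enzyme of heme synthesis in red cells, alas2, fell from 480 and 486 CPM to 151 and 174 CPM (log2 -1.57 ± 0.26, edgeR adjusted p = 0.0017). The anion exchanger of the red cell membrane, slc4a1a, fell from 175 and 179 CPM to 60.9 and 54.1 CPM, the membrane skeleton protein epb41b from 93.5 and 106 CPM to 28.7 and 34.9 CPM, and the red cell carbonic anhydrase cahz from 262 and 244 CPM to 96.6 and 95.0 CPM. The erythropoietin receptor epor fell from 28.2 and 28.9 CPM to 13.1 and 14.6 CPM. The nucleotidase nt5c2l1, which alternated, fell from 86.5 and 88.7 CPM to 12.5 and 13.6 CPM.

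The fall did not take in the whole list. The median log2 fold change of the 18 genes was -0.39, and 12 did not pass: the spectrin gene sptb was at means of 261 and 225 CPM, the Rh-associated transporter rhag at 97.5 and 82.7 CPM, the ferrochelatase fech, the last enzyme of heme synthesis, at 18.6 and 19.3 CPM and the blood stem cell factor tal1 at 13.2 and 13.7 CPM. Outside the list, the alpha globin gene hbae fell with hbb, from 7633 and 7917 CPM to 1187 and 1022 CPM (log2 -2.82 ± 0.43, edgeR adjusted p = 0.00129), but alternated with the day. Globin genes are near-identical copies whose reads can be split by the counting, so the values of single copies are uncertain. Without the 4 libraries in turn, 6, 5, 5 and 6 genes of the list were downregulated DEGs, and hbb, hbae, alas2, slc4a1a, epb41b and cahz passed in all 4 fits. The edgeR adjusted p of epor was 0.058 without 5 dpf replicate 2 and 0.063 without 6 dpf replicate 1.

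The genes differed in where they had been at 2 dpf. The mean level at 2 dpf was above that at 5 dpf for slc4a1a (708 against 177 CPM) and rhd (41.7 against 14.1 CPM). For alas2 it was close to it (460 against 483 CPM), and for hbb it was lower (6258 against 12335 CPM). Each of these genes was higher at 2 dpf than at 6 dpf. The blood group gene kel peaked at 5 dpf, from a mean of 5.96 CPM at 2 dpf to 38.8 CPM at 5 dpf and 6.83 CPM at 6 dpf.

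**Figure D3:**
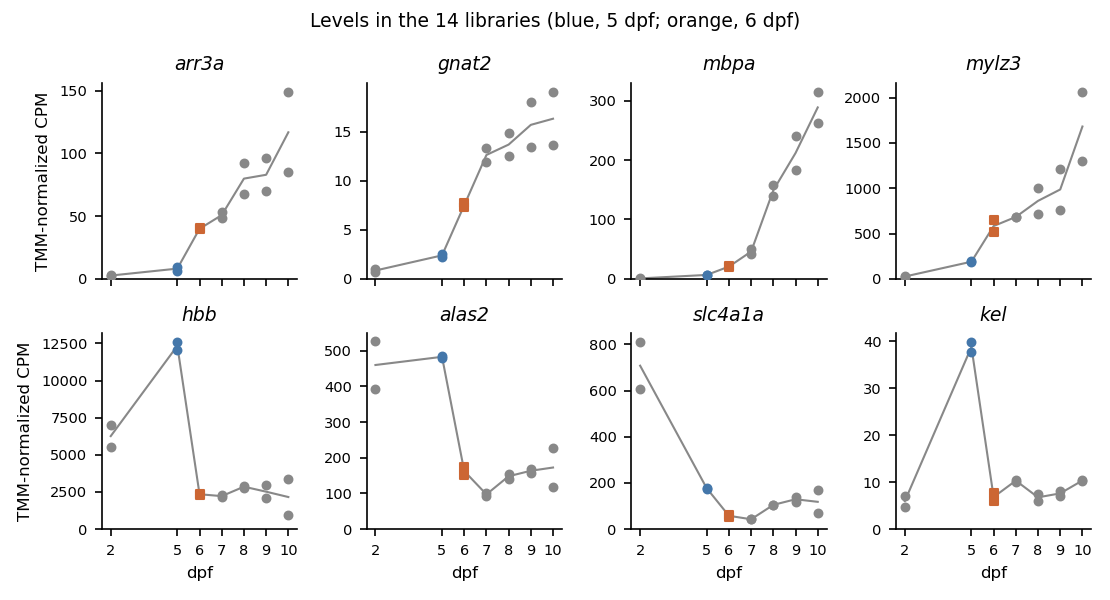
TMM-normalized CPM (y axis, from 0, a scale of its own in each panel) in each of the 14 libraries against age in dpf, with a line through the stage means, for the upregulated genes arr3a, gnat2, mbpa and mylz3 and the downregulated genes hbb, alas2, slc4a1a and kel. The upper genes go on rising to 10 dpf, arr3a from 39.5 and 40.3 CPM at 6 dpf to a mean of 117 CPM, and the lower genes do not return to their 5 dpf level.

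A number of genes of the response to low oxygen fell. The list of 43 tested genes was drawn up after egln3, hif1al2 and ddit4 had been seen, so its counts are a description. In it, 10 (23.3%) were downregulated DEGs and 3 (6.98%) upregulated, beside 2.56% and 7.34% of all genes. Of the 10, 9 did not alternate. The median log2 fold change was -0.37. The prolyl hydroxylase egln2 fell from 32.5 and 30.1 CPM to 11.8 and 11.5 CPM (log2 -1.42 ± 0.15, edgeR adjusted p = 0.000204). The carbonic anhydrase ca9 fell from 16.4 and 17.8 CPM to 7.82 and 7.49 CPM, ndrg1a from 357 and 364 CPM to 134 and 125 CPM, and lactate dehydrogenase ldha, which turns pyruvate into lactate, from 511 and 512 CPM to 249 and 205 CPM. Transcription factor genes of the same system went both ways. The gene hif1ab rose from 67.8 and 64.7 CPM to 143 and 129 CPM (log2 1.04) and epas1b from 11.04 and 9.57 CPM to 28.1 and 24.1 CPM (log2 1.35), while hif1al2 fell (log2 -1.92). The egln3 level returned to a mean of 18.4 CPM at 7 dpf, and that of hif1al2 stayed at 8.02 CPM. Without the 4 libraries in turn, 10, 9, 9 and 9 of the genes were downregulated DEGs. For hif1ab the log2 fold change was 0.96 without 5 dpf replicate 2 and 0.92 without 6 dpf replicate 1, under the threshold of 1.

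In glycolysis, 4 of 26 tested genes (15.4%) were downregulated DEGs and 2 (7.69%) were upregulated, beside 2.56% and 7.34% of all genes. Over the list the median log2 fold change was -0.55. Of these, ldha fell and the brain aldolase aldoca rose without alternation. The liver-type phosphofructokinase pfkla, pyruvate kinase pklr and phosphoglycerate kinase pgk1 fell and hexokinase hk2 rose, and all 4 alternated with the day. The edgeR adjusted p was 0.093 for aldoca and 0.063 for hk2 without 5 dpf replicate 2, and the log2 fold change of pgk1 was -0.97 without 6 dpf replicate 2.

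Liver genes moved in both directions. Of 45 tested, 6 (13.3%) were upregulated DEGs and 2 (4.44%) downregulated, beside 7.34% and 2.56% of all genes. None of these DEGs alternated, and the median log2 fold change of the list was -0.20. Besides ahsg2, the tryptophan dioxygenase tdo2b, an enzyme particular to liver in mammals, rose from 0.225 and 0.168 CPM (1 count in each library) to 3.29 and 3.79 CPM and to a mean of 38.8 CPM at 9 dpf. The urea cycle enzyme cps1 rose from 26.4 and 34.8 CPM to 78.8 and 74.9 CPM (log2 1.32 ± 0.18, edgeR adjusted p = 0.000746) and was back at 44.9 CPM at 7 dpf. Phenylalanine hydroxylase pah, glucose-6-phosphatase g6pc1a.1 and hemopexin hpxa, a heme-binding plasma protein, also rose. The apolipoproteins apoa2 and apoc1, which coat lipid particles, fell: apoa2 from 3588 and 3699 CPM to 1558 and 1522 CPM (log2 -1.24 ± 0.22) and apoc1 from 2236 and 2323 CPM to 952 and 963 CPM (log2 -1.25 ± 0.25). Apolipoprotein B, apobb.1, the most abundant gene of the list, did not pass the test, at log2 0.10 (adjusted p = 0.83). The calls of ahsg2, tdo2b, cps1, apoa2 and apoc1 held in all 4 fits without 1 library, and the adjusted p of hpxa lay between 0.14 and 0.20. Without 5 dpf replicate 2 it was 0.061 for pah and 0.066 for g6pc1a.1, and without 5 dpf replicate 1 it was 0.065 for g6pc1a.1.

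Many genes of the extracellular matrix rose. Of 66 tested genes of basement membranes and connective tissue, 20 (30.3%) were upregulated DEGs, beside 7.34% of all genes. Of the 20, 17 did not alternate, and 1 gene, the proteoglycan bgnb, was downregulated. Their list had a median log2 fold change of 0.51. The anchoring fibril collagen col7a1, which ties epidermis to dermis, rose from 24.3 and 23.3 CPM to 127 and 104 CPM (log2 2.27 ± 0.22, edgeR adjusted p = 0.000178). The laminin chains lamc1 and lama2 rose from 135 and 138 CPM to 392 and 324 CPM and from 79.3 and 76.9 CPM to 201 and 172 CPM. Fibronectin fn1b went from 283 and 286 CPM to 896 and 881 CPM and was at a mean of 329 CPM at 7 dpf. Elastin elnb rose from 7.89 and 9.57 CPM to 57.0 and 33.9 CPM, and the fibril collagen col5a1 and the small proteoglycan dcn rose as well.

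Of these 20 genes, 20 were above 5 dpf at every later stage, 17 were lower at 7 dpf than at 6 dpf, and 12 had been higher at 2 dpf than at 5 dpf. The basement membrane genes hspg2 (perlecan), nid2a (nidogen) and lama5 alternated with the day, with log2 fold changes of 1.97, 2.19 and 1.55. Without the 4 libraries in turn, 10, 8, 12 and 17 genes of the list were upregulated DEGs. The calls of col7a1, lamc1, lama2 and elnb held in all 4 fits, and the adjusted p of fn1b was 0.058 without 5 dpf replicate 1 and 0.061 without 5 dpf replicate 2.

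Bone and cartilage genes went different ways. In bone formation, 5 of 22 tested genes (22.7%) were upregulated DEGs and 1 (4.55%) was downregulated, beside 7.34% and 2.56% of all genes. Of the 5, 4 did not alternate, and the median log2 fold change of the list was 0.38. The bone transcription factor runx2a rose from 4.28 and 5.21 CPM to 16.4 and 13.1 CPM (log2 1.62 ± 0.29, edgeR adjusted p = 0.00278), its copy runx2b, which alternated, from 1.80 and 3.86 CPM to 16.4 and 12.8 CPM, and the mineralization gene entpd5a from 6.31 and 6.38 CPM to 25.6 and 20.1 CPM. The type I collagen genes col1a1a and col1a1b rose from 3141 and 3153 CPM to 9450 and 7003 CPM and from 2600 and 2574 CPM to 7566 and 5446 CPM. The osteoclast phosphatase acp5a fell from 559 and 565 CPM to 182 and 184 CPM, after 1598 CPM at 2 dpf. The calls of runx2a, runx2b and acp5a held in all 4 fits without 1 library, and those of entpd5a, col1a1a and col1a1b held in none, with adjusted p between 0.051 and 0.18.

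In cartilage, 4 of 25 tested genes (16%) were downregulated DEGs and 1 (4%) was upregulated, beside 2.56% and 7.34% of all genes. The median log2 fold change was -0.89, and 21 of the 25 log2 fold changes were negative. With only the 4 libraries of 5 and 6 dpf in the fit, 11 were downregulated DEGs by edgeR and 11 by DESeq2, and with DESeq2 on all 14 libraries 5 were. Aggrecan, acana, the main proteoglycan of cartilage, was at 266 and 284 CPM at 5 dpf and 94.0 and 73.3 CPM at 6 dpf (log2 -1.72 ± 0.51, edgeR adjusted p = 0.0318). The link protein hapln1b, which ties aggrecan to hyaluronan, fell from 34.3 and 36.1 CPM to 10.8 and 9.82 CPM (log2 -1.77 ± 0.34). The levels of acana and hapln1b swung after 6 dpf. At 7 dpf acana was at a mean of 273 CPM and hapln1b at 34.6 CPM, the 5 dpf level. The 8 and 9 dpf means were 135.01 and 135 CPM for acana and 18.17 and 15.1 CPM for hapln1b. At 10 dpf acana was at 68.47 CPM, under both 6 dpf libraries, and hapln1b lay between its 6 dpf libraries. Both genes missed the mark for alternation only because their mean at 8 dpf lay above that at 9 dpf. The contrast of 7 to 10 dpf was -0.49 for acana, close to the cut of 0.5 in size. Matrilin matn1 (509 and 507 CPM, then 69.9 and 42.1 CPM, and a mean of 497 CPM at 7 dpf) and snorc alternated. The main cartilage collagen col2a1a had means of 4959 and 3170 CPM (adjusted p = 0.52). The call of hapln1b held in all 4 fits without 1 library, and those of acana, matn1 and snorc held in none, with adjusted p between 0.068 and 0.18. The fibril collagen col11a1b rose, from 72.8 and 68.2 CPM to 384 and 317 CPM.

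**Figure D4:**
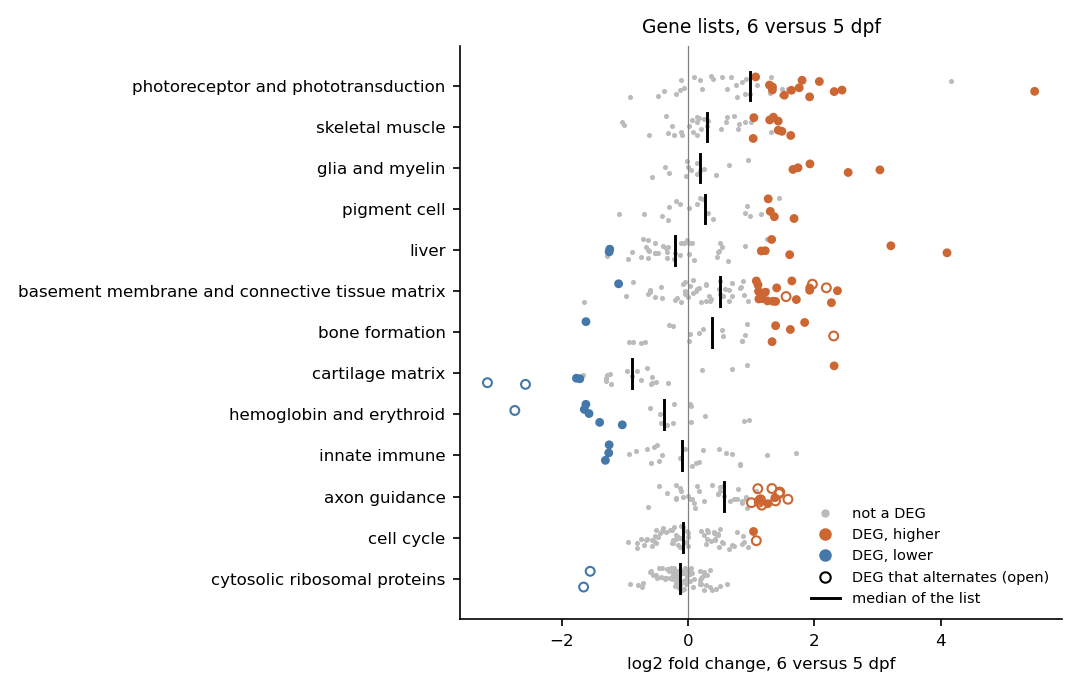
log2 fold change of 6 versus 5 dpf (x axis) for each tested gene of 13 lists. Grey points are not DEGs, orange and blue points are DEGs higher and lower at 6 dpf, open points alternate with the day, and the black bar is the median of the list. All 13 photoreceptor DEGs lie to the right and are filled (the farthest is grk1b, a fitted value with no read at 5 dpf), and 10 of the 13 axon guidance DEGs are open.

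Of the genes that steer growing axons, those that rose mostly alternated. Of 47 tested, 13 (27.7%) were upregulated DEGs, beside 7.34% of all genes, and 0 downregulated. Of the 13, 10 alternated with the day. The 3 that did not were the repellent ligand slit2 (6.76 and 10.9 CPM, then 23.5 and 19.8 CPM), its receptor robo1 (33.6 and 29.9 CPM, then 73.4 and 65.2 CPM) and the semaphorin sema3c (8.56 and 7.22 CPM, then 21.1 and 19.6 CPM). The median log2 fold change of the list was 0.57 and its median span in the annotation 71552 bases, beside 12243 bases over all genes. Without the 4 libraries in turn, 5, 6, 8 and 9 genes of the list were upregulated DEGs. Only the call of sema3c among the 3 held in all 4 fits without 1 library: the log2 fold change of slit2 was 0.93 without 5 dpf replicate 1, and the edgeR adjusted p of robo1 lay between 0.057 and 0.13.

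Of 49 genes of synapses and mature neurons, 3 rose without alternation, namely nefla, the synaptic adhesion gene nrxn3a and the glutamate receptor gria4a (nefla alternated by the contrast of 7 to 10 dpf and by a test of odd and even days), and the vesicular glutamate transporter slc17a6a fell with alternation. Upregulated DEGs were 6.12% of this list and downregulated DEGs 2.04%, beside 7.34% and 2.56% of all genes, and its median log2 fold change was 0.04. The adjusted p of nrxn3a was between 0.15 and 0.22 without each of the 4 libraries. Of 28 genes of neural progenitors, the Notch ligand dld fell from 48.0 and 46.5 CPM to 23.4 and 22.4 CPM (log2 -1.05 ± 0.14, edgeR adjusted p = 0.000746) without alternation. The receptors notch3 and notch1a and the mitotic gene nde1 rose and alternated, nde1 from 9.69 and 11.6 CPM to 23.7 and 20.6 CPM. Upregulated DEGs were 10.7% and downregulated DEGs 3.57% of the progenitor list, and its median log2 fold change was -0.15. Without 1 library in turn, the calls of dld and notch3 held in all 4 fits, and notch1a passed only without 6 dpf replicate 2.

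Many genes that read, write or remodel chromatin rose. The list of 79 tested genes was drawn up after ep400 and others had been seen, so its counts are a description. In it, 39 (49.4%) were upregulated DEGs, beside 7.34% of all genes, and 0 were downregulated. Of the 79 log2 fold changes, 74 were positive, with a median of 0.99 over the list. Of the 39, 19 did not alternate. The histone methyltransferase kmt2ca had 30.0 and 34.4 CPM at 5 dpf and 150 and 148 CPM at 6 dpf, the corepressor ncor1 35.2 and 35.8 against 161 and 157 CPM, and the acetyltransferase kat6a 28.6 and 27.5 against 99.3 and 96.2 CPM. These genes missed the mark only because their mean at 9 dpf lay above that at 8 dpf. The 9 and 8 dpf means were 123.5 and 103 CPM for kmt2ca, 105.2 and 97.25 CPM for ncor1, and 73.5 and 64.7 CPM for kat6a. Under all 4 rules for alternation 19 genes stayed unmarked, but the other rules mark fewer DEGs. Among those that alternated, the remodeller subunit bptf had 26.8 and 26.0 CPM and then 162 and 165 CPM (log2 2.63 ± 0.30, edgeR adjusted p = 0.00033).

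All 39 were lower at 7 dpf than at 6 dpf and above 5 dpf at each stage from 7 to 10 dpf, and 38 of the 39 had been higher at 2 dpf than at 5 dpf. The 5 dpf libraries held the lowest mean level of the series for these 38 genes. The median span of the list was 31593 bases, beside 27534 bases over the upregulated DEGs. Without the 4 libraries in turn, 21, 21, 32 and 34 of the genes were upregulated DEGs, and 18 passed in all 4 fits. The edgeR adjusted p was 0.053 for kmt2ca without 5 dpf replicate 1 and 0.058 for kat6a without 5 dpf replicate 2. A list of 13 tested genes of the thyroid hormone axis was drawn up after thrab had been seen. In it, thrab and thyroglobulin tg, the protein from which the hormone is made, were upregulated DEGs (15.4%) and 0 were downregulated. The list had 7 positive and 6 negative log2 fold changes. The level of tg was 8.34 and 6.21 CPM at 5 dpf and 31.7 and 20.4 CPM at 6 dpf, and its adjusted p was 0.096 without 5 dpf replicate 2 and 0.068 without 6 dpf replicate 1.

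The other lists had up to 4 DEGs each, beside 7.34% upregulated and 2.56% downregulated over all genes. Of 24 innate immune genes, 3 (12.5%) were downregulated DEGs, among them apoc1 and the neutrophil oxidase subunit ncf1 (18.5 and 13.6 CPM, then 6.69 and 6.13 CPM). The call of ncf1 held in no fit without 1 library (edgeR adjusted p between 0.071 and 0.15). The neutrophil peroxidase mpx was at means of 45.4 and 63.8 CPM (adjusted p = 0.36). Of 22 adaptive immune genes, bcl11ba and rag2 rose (9.09%), at log2 2.03 and 1.05. The adaptive list had a median log2 fold change of 0.05, with 12 positive and 10 negative values. By DESeq2 on all 14 libraries, 1 adaptive gene was upregulated and 1 downregulated. Of 22 interferon response genes mxa and irf3 rose (9.09%). Of these, irf3 alternated by the stage means and mxa by the contrast of 7 to 10 dpf, and the adjusted p of mxa lay between 0.059 and 0.25 without 1 library. Of 29 genes of epidermis and ionocytes, the skin stem cell factor tp63 rose from 15.8 and 13.3 CPM to 34.3 and 36.5 CPM, the desmosome gene dspa rose, and cahz, which is also on the red cell list, fell. Of 20 heart muscle genes, gata6 and ryr2b rose (10%), and gata6 alternated by a test of odd and even days. Of 67 cell cycle genes, 2 were upregulated DEGs, top2a (124 and 132 CPM, then 272 and 248 CPM) and, with alternation, cdc6, and the median log2 fold change was -0.09. No gene of 8 tested for exocrine pancreas or 10 for endocrine islets was a DEG. The exocrine list had a median log2 fold change of -1.01, with 2 positive and 6 negative values. The summed level of its 9 matched genes was 30.7 and 31.7 CPM at 5 dpf and 7.93 and 7.30 CPM at 6 dpf. By DESeq2 on all 14 libraries, 2 exocrine genes were downregulated DEGs. The sodium-coupled carboxylate transporter slc5a12 was the 1 DEG of 21 genes of intestine and stomach, and fell. Of 44 heat shock and immediate early genes, 3 rose, among them the clock gene per2 and the immediate early factor egr1, and the phosphatase dusp1 fell with alternation. Of the DEGs of these lists that do not alternate, tp63, apoc1 and cahz passed in all 4 fits without 1 library. The edgeR adjusted p was 0.056 for bcl11ba and 0.27 for rag2 without 5 dpf replicate 2, and the log2 fold change of top2a was 0.92 without 5 dpf replicate 1.

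The DEGs that alternate included the DEG with the largest fall of the comparison. The ear gene otos, which encodes otospiralin of the inner ear, was at 18.03 and 14.6 CPM at 5 dpf and 0.618 and 0.389 CPM at 6 dpf (6 and 4 counts), a log2 fold change of -4.98 ± 1.33 (edgeR adjusted p = 0.0206), and then at means of 27.7, 7.31, 20.2 and 3.03 CPM from 7 to 10 dpf. The growth factor binding protein fgfbp2b followed the same course, from 39.4 and 41.6 CPM to 3.40 and 2.53 CPM and back to 39.5 CPM at 7 dpf. Of 24 tested genes of hair cells and the ear, otos was the 1 downregulated DEG (4.17%, beside 2.56% of all genes). The genes otog and otomp were upregulated DEGs (8.33%, beside 7.34%), also with alternation. The summed level of the 25 genes matched was 639 and 611 CPM at 5 dpf and 472 and 511 CPM at 6 dpf. That list had a median log2 fold change of 0.38, with 17 positive and 7 negative values. The call of otos held in no fit without 1 library (adjusted p between 0.073 and 0.12), and that of fgfbp2b held in all but the fit without 6 dpf replicate 2 (adjusted p = 0.058). Upward, the signalling adaptor tab2 was at 1.13 and 0.840 CPM, then 13.1 and 7.199 CPM, and at 1.86 CPM at 7 dpf (adjusted p between 0.059 and 0.096 without 5 dpf replicate 1, 5 dpf replicate 2 or 6 dpf replicate 1). The gene LOC108273582 rose from 4.28 and 3.53 CPM to 70.9 and 62.2 CPM and LOC108280559 from 5.41 and 3.53 CPM to 39.5 and 48.3 CPM. The gene with identifier 108262451, which has no symbol in the annotation used, rose from 0.225 and 0.168 CPM, 1 count in each library, to 10.81 and 10.215 CPM (log2 5.67 ± 0.84). The calls of these 3 held in all 4 fits without 1 library.

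In the lists of the basic machinery of the cell, the DEGs alternated with the day. Outside the mitochondrial genome they were no more frequent than over all genes. Of 13 genes of the mitochondrial genome, 7 were upregulated DEGs, all 13 log2 fold changes were positive with a median of 1.43 (1.28 with ATP8, which had no read at 5 dpf, set against the floor), and all 7 alternated. The subunit genes ATP6 and ND4 went from 10.1 and 7.89 CPM to 115 and 41.4 CPM and from 21.4 and 20.3 CPM to 177 and 83.3 CPM. Without 6 dpf replicate 2, 7 of the genes were upregulated DEGs, and without 5 dpf replicate 1, 5 dpf replicate 2 and 6 dpf replicate 1 the number was 0, 1 and 0. The share of all counts on the mitochondrial genome was 0.414% and 0.392% at 5 dpf and 0.589% and 0.544% at 6 dpf. Of 84 cytosolic ribosomal protein genes, rpl13a (1548 and 1584 CPM, then 520 and 473 CPM) and rps12 fell and alternated, and the median log2 fold change was -0.13. These were 2.38% of the list, beside 2.56% downregulated over all genes. Of 41 proteasome subunit genes, psmc5 (12.2 and 14.9 CPM, then 61.0 and 52.5 CPM) and psma5 rose and alternated (4.88%, beside 7.34% upregulated over all genes). Of 61 nuclear genes of the respiratory chain, ndufb8 fell and alternated (1.64%).

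The direction of change went with the span of the gene in the annotation, introns included. When the 19608 tested genes with a known span were split into 5 bins of equal size, the median log2 fold change was -0.28 in the shortest bin, -0.18, -0.06 and 0.13 in the next 3 and 0.38 in the longest. Upregulated DEGs were 3.06% of the shortest bin and 16.4% of the longest, and downregulated DEGs 5.89% and 0.408%. The DEGs that do not alternate followed the same order, with 2.07% and 9.20% upregulated and 3.21% and 0.229% downregulated. The median span was 27534 bases over the upregulated DEGs and 5865 bases over the downregulated DEGs. The longest bin took 15.2% of the counts with a gene in each 5 dpf library and 23.2% in each 6 dpf library. Without ttn.1, ttn.2 and neb, a choice made after seeing the data, these shares were 13.9% at 5 dpf and 20.01% and 20.1% at 6 dpf.

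The lists did not all follow this order. The median span of the photoreceptor list was 6814 bases, under that of all genes, and its median log2 fold change was 0.98, while the hemoglobin and erythroid list had a median span of 11953 bases and a median log2 fold change of -0.39. The chromatin, axon guidance and matrix lists had long spans (medians of 31593, 71552 and 39728 bases). The 2 libraries of 7 dpf had shares of 23.7% and 24.2% on the longest bin. Those of 8 dpf had 19.7% and 21.8%, those of 9 dpf 25.1% and 19.2%, those of 10 dpf 23.2% and 33.4%, and those of 2 dpf 15.9% and 15.0%. From 7 to 10 dpf the libraries of odd and even days overlapped, and 1 library of 10 dpf had the highest share of the series. The part of span in the single changes was not tested.

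**Figure D5:**
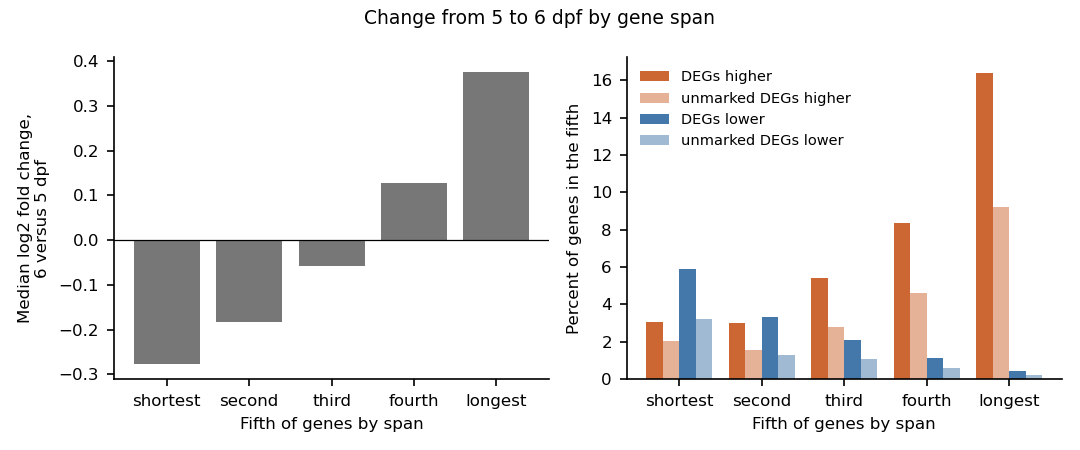
Median log2 fold change of 6 versus 5 dpf (left) and percent of genes that were DEGs higher or lower at 6 dpf (right; pale bars, those that do not alternate), in 5 bins of the tested genes by span in the annotation. The median goes from -0.28 in the shortest bin to 0.38 in the longest, and the share of upregulated DEGs from 3.06% to 16.4%.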

How the data were processed

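RNA of whole channel catfish was sequenced in 14 libraries, 2 pools of 4 fish at each of 7 stages, and the 2 libraries of 6 dpf were compared with the 2 of 5 dpf. The deposited values are the authors' raw read counts per gene, not normalized. Per the labels and the study's methods, reads were trimmed with Trimmomatic 0.36, mapped to the channel catfish reference genome with STAR 2.7.0 and counted with HTSeq. The build name, the annotation and the strand setting of the counting are not given in the sources used here, so genes that overlap, antisense genes and near-identical copies are uncertain. Symbols and spans came from the RefSeq annotation of Coco_2.0 by gene identifier. Of the 23231 genes, 21834 had a symbol. It holds no gene names, so 9 lists that rest on names (such as opsins, keratins and histones) could not be used.

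The 7 lines that shared an identifier with another were summed. Total counts lay between 4349807 and 16097718, and the floor of a library was 3 counts, which covers counting error only. Genes were tested with edgeR 4.0.16 in R 4.3.3 (TMM, filterByExpr, quasi-likelihood test) with a mean per stage over all 14 libraries and Benjamini-Hochberg adjustment over 20329 genes. DEGs passed 0.05 in adjusted p and 1 in the size of the log2 fold change. CPM are TMM-normalized, and a pseudocount of 0.1 was used for levels relative to 5 dpf. The SE was taken as the log2 fold change over the root of F, without sign. In simulated counts for 6 versus 5 dpf, 97% of 200 genes changed by a log2 of 2 were recovered, with 6 false calls among 19987 genes. The changed genes were drawn from well-counted genes only, so this share does not cover genes with few counts or smaller changes. Nothing states that the pools came from separate spawns, so p-values measure the spread between these pools. Replicate numbers do not pair pools of different stages, which held different fish.

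Genes named in the text were the 10 DEGs that rose and the 10 that fell most among those with a symbol other than a locus tag, at least 10 CPM at the higher stage, no overlap between the stages and no alternation, the 4 alternating DEGs that rose and the 4 that fell most, and up to 3 DEGs of lowest adjusted p in each list. Some genes that met these rules are not reported here. Other genes, and 4 lists beside the other 30 (hypoxia, chromatin, thyroid hormone axis, red cell membrane), were chosen after their values were seen. From the red cell membrane list, 4 of 13 genes (30.8%) were downregulated DEGs and 0 were upregulated, beside 2.56% and 7.34% of all genes. The 4 were rhd and kel, chosen above for their large fall, and slc4a1a and epb41b, already counted in the hemoglobin and erythroid list. This count is therefore a description and adds no separate result. The members and all lists were chosen with earlier results of these data known. Alternatives were DESeq2 1.42.0, other samples in the fit, RLE scaling, other filters on low counts, a replicate block, each library left out, glmTreat with a fold of 1 on the log2 scale, libraries drawn down to the smallest total and 3 other rules for alternation.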

Additional observations from a re-analysis of the deposited data

How the results depend on the processing

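Main counts were 2012 DEGs (1492 higher, 520 lower), of which 914 alternated and 835 higher and 263 lower did not. Leaving out 1 of the 4 libraries gave 859 to 1239 DEGs, 553 to 893 higher and 306 to 354 lower, 505 to 668 that alternated, and 225 to 413 higher and 129 to 159 lower that did not; a stage then has 1 library, assumed to vary like the others. With glmTreat, which tests for more than 1 on the log2 scale, there were 166 DEGs (129 higher, 37 lower), 106 that alternated and 39 higher and 21 lower that did not. edgeR on only the 4 libraries gave 410 lower DEGs that did not alternate. Marked by all 12 libraries apart, 250 DEGs alternated and 1375 higher ones did not; marked by the contrast of 7 to 10 dpf it was 473, and by a test of odd and even days with a linear day 595. Under all 4 rules, 790 higher and 229 lower DEGs did not alternate. DESeq2, RLE scaling, no filter on low counts, a minimum of 10 counts and libraries drawn down to the smallest total gave 1590 to 2039 DEGs. A minimum of 10 counts in every library, which tests fewer low genes, left 1 photoreceptor, 0 glia, 2 pigment, 2 bone and 3 liver genes higher, and glmTreat left 1 photoreceptor, 0 muscle, 3 matrix, 5 chromatin and 1 axon guidance gene higher and 1 erythroid, 3 hypoxia and 0 cartilage genes lower. Over the 68 named genes, 721 of 869 values under alternatives kept the call, 148 lost it with the same direction, and 0 reversed. The replicate block gave 1912 DEGs (1435 higher, 477 lower); numbers did not pair the libraries (correlation of same-numbered deviations 0.0012), and this is no sign of weaker effects. The share on the longest bin of genes by span was 23.2% in each 6 dpf library, and without ttn.1, ttn.2 and neb 20.01% and 20.1%. With 2 libraries a stage and 4349807 counts in the smallest, low genes such as grk1b rest on a few reads.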
